A study of Mus musculus with 15 samples.

Results

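The genes described here are 10 targets of the extracellular signal-regulated kinases (ERK) that were picked by name: Dusp4, Dusp5, Dusp6, Spry1, Spry2, Spred1, Spred2, Phlda1, Egr1 and Etv5. They are 10 of 52327 named genes in a count table from a mouse cell line labelled HoxB, with cell type Blood, and all 10 passed the expression filter that left 13123 genes for testing. The 15 mRNA libraries form 5 groups of 3. EMPTY stands for control vectors. RUNX1-ETO_ONLY cells had RUNX1-ETO, a transcription factor fused from RUNX1 and RUNX1T1 (ETO) in leukaemia. CSF3R_ONLY cells had CSF3R-T618I, a mutant form of the granulocyte colony-stimulating factor receptor. The labels give both alleles to RUNX1-ETO_FIRST and CSF3R_FIRST, the double groups, which differ in the allele that came first. All groups share the 1 line. The labels give no drug, cytokine, time point, vector promoter or clone for any group, nor any sign that replicates came from different cultures, so p-values measure the spread between these libraries, which may be technical.

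ERK is the last kinase of the RAS, RAF and MEK cascade, which carries signals from growth factor and cytokine receptors, CSF3R among them, to the nucleus. Active ERK switches on immediate early transcription factors such as Egr1 and, later, genes whose products dampen the same cascade. Among these are dual-specificity phosphatases (Dusp), which remove the activating phosphates from ERK and related kinases, and the Sprouty (Spry) and Spred proteins, which act near RAS and RAF. Messenger levels of such genes are often read as a record of ERK signalling, but each also answers to other inputs, and no phosphorylated protein was measured here.

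Total counts per library were 17007437 to 18178292. In 4 libraries (EMPTY 3, RUNX1-ETO_ONLY 3, RUNX1-ETO_FIRST 1 and CSF3R_FIRST 3) the deviation from the group mean fell with transcript length, with Spearman correlations across genes of −0.387 to −0.538 against −0.073 to 0.458 in the others. Results that change without these 4 are given both ways. Runx1t1 had no counts in EMPTY and CSF3R_ONLY and 6786 to 13499 in each library labelled with the fusion. Csf3r did not separate the groups by label: it lay at 373 to 465 CPM (counts scaled by library size) in EMPTY, 507 to 536 in RUNX1-ETO_ONLY, 617 to 626 in CSF3R_ONLY, and in the double groups at 401 to 441 (RUNX1-ETO_FIRST) and 366 to 430 (CSF3R_FIRST). Whether reads of the introduced receptor are counted under mouse Csf3r was not tested, so these counts do not check that allele. All 6 pan-blood markers were counted in every group, with summed CPM of 2383.3 to 4992.2, against at most 18.7 for 5 stromal and 0.441 for 5 lymphoid markers.

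The nuclear phosphatases Dusp4 and Dusp5 were high in every group that carried the fusion and low in the other groups. Dusp5 (chr19:53529109-53542431, plus strand, mm10), which acts on ERK in the nucleus, measured 10.5, 13.3 and 12.2 CPM in EMPTY and 10, 9.84 and 10.7 in CSF3R_ONLY. It measured 36.1, 36.1 and 37.2 CPM in RUNX1-ETO_ONLY. The double groups had 50.5, 43.9 and 46.1 CPM (RUNX1-ETO_FIRST) and 37.6, 42.4 and 35.3 CPM (CSF3R_FIRST). The lowest library with the fusion was thus above the highest without it, and RUNX1-ETO_FIRST stood above the other groups in every library. Dusp4 (chr8:34807297-34819894, plus strand), a nuclear phosphatase that also acts on other MAP kinases, measured 3.64, 2.72 and 1.32 CPM in EMPTY and 2.51, 2.26 and 2.48 in CSF3R_ONLY. It reached 12.4, 11.8 and 9.06 CPM in RUNX1-ETO_ONLY. The double groups had 6.62, 7.32 and 6.26 CPM (RUNX1-ETO_FIRST) and 12.2, 10.1 and 8.73 CPM (CSF3R_FIRST). RUNX1-ETO_FIRST was intermediate for Dusp4, with all 3 libraries below those of the other fusion groups, whereas it was highest for Dusp5.

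Dusp6 went the other way. Its product is the cytoplasmic phosphatase that is highly selective for ERK, and the gene (chr10:99263231-99267489, plus strand) is widely used as a readout of the pathway. It measured 33.1, 34.7 and 33.4 CPM in EMPTY, 23.9, 22.3 and 20 in RUNX1-ETO_ONLY and 17.0, 15.7 and 17.5 in CSF3R_ONLY. With both alleles it measured 20, 17.4 and 17.3 CPM in RUNX1-ETO_FIRST and 20.5, 20.7 and 19.9 in CSF3R_FIRST. Every library with either allele lay below every EMPTY library, and CSF3R_ONLY was lowest on average at 16.7 ± 0.946 CPM (SD, n = 3).

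The Sprouty genes did not move together. Spry1 (chr3:37639947-37644598, plus strand) measured 5.78, 5 and 6.84 CPM in EMPTY, 4.08, 3.19 and 3.67 in RUNX1-ETO_ONLY and 3.21, 2.55 and 1.85 in CSF3R_ONLY. With both alleles it was lower still, at 1.85, 1.65 and 1.69 CPM in RUNX1-ETO_FIRST and 1.80, 0.768 and 1.09 in CSF3R_FIRST. Its mean was lower with each single allele than in EMPTY and lowest in the double groups, which overlapped each other. A gene model on the other strand, Gm42922, had 0 to 11 counts in a library. Spry2 (chr14:105891947-105896819, minus strand) measured 15.9, 15.1 and 14.9 CPM in EMPTY and 9.64, 8.63 and 9.69 in RUNX1-ETO_ONLY. It measured 18.4, 17.1 and 20.2 CPM in CSF3R_ONLY, 21.0, 16.6 and 20.5 in RUNX1-ETO_FIRST and 24.4, 22.0 and 21.5 in CSF3R_FIRST. RUNX1-ETO_ONLY was the only group below EMPTY for Spry2, and the groups carrying the receptor allele were above it in every library.

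Spred1 followed the fusion and Spred2 hardly varied. The Spred proteins bind neurofibromin, which switches RAS off. Spred1 (chr2:117121374-117182279, plus strand) measured 32.9, 30.2 and 30.8 CPM in EMPTY, 25.5, 26.5 and 25.4 in CSF3R_ONLY and 63.1, 56.1 and 48.0 in RUNX1-ETO_ONLY. It was 42.8, 43.1 and 44.1 CPM in RUNX1-ETO_FIRST and 46.0, 47.0 and 43.9 in CSF3R_FIRST, between EMPTY and the fusion alone. Spred2 (chr11:19924375-20024026, plus strand) ranged from 56.5 CPM in a CSF3R_ONLY library to 81.4 in a CSF3R_FIRST library, and its group means spanned 0.40 on the log2 CPM scale, the narrowest span of the 10.

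The stretch just upstream of the transcription start is shown for the phosphatases and Sproutys that differed in direction, because it is where ERK-regulated factors are often found. Sequences are from RefSeq on GRCm38.p6, which held 7 of the 10 genes, and are printed 5′ to 3′ on the gene's own strand, up to the first annotated start. Capitals mark matches to the CArG box, the site of serum response factor, through which ERK reaches many immediate early genes. Positions are chr19:53528895-53529108 for Dusp5, chr10:99262981-99263230 for Dusp6, chr3:37639697-37639946 for Spry1 and chr14:105896820-105897069, on the minus strand, for Spry2.
Dusp5: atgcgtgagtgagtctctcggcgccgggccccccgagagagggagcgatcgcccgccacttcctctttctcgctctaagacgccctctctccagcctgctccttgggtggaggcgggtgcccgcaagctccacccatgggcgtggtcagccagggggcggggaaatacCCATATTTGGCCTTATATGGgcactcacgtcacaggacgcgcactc
Dusp6: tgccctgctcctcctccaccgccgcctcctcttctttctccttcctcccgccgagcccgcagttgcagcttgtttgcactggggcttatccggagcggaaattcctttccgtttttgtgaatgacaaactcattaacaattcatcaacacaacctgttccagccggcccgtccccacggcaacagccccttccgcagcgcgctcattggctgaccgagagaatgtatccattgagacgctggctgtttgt
Spry1: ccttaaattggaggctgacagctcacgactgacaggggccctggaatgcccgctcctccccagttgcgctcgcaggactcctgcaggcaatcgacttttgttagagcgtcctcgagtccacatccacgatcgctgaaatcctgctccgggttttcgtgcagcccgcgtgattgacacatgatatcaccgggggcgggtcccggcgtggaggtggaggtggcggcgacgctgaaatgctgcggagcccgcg
Spry2: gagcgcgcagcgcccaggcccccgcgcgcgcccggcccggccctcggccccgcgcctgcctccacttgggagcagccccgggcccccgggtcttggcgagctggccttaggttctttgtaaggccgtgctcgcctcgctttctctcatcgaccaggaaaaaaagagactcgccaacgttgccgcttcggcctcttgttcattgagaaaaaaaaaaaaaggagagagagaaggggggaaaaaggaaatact

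Dusp5 held 2 CArG boxes side by side, 82 and 72 bases before the RefSeq start, and none of the other promoter windows held one. Dusp4, Phlda1 and Egr1 had no window and were not searched. There were 8 windows of 250 bases for the 7 genes, since Etv5 has 2 starts. Of 32851 mouse promoter windows searched the same way on both strands, 1.47% held at least 1 CArG box and 0.0183% held 2 or more. Matches were also sought to TGTGGT (a RUNX core, in 14% of promoters), CCGGAAG (an ETS site, in 6.91%), TGACGTCA (a cyclic AMP response element, in 1.55%), TGANTCA (an AP-1 site, in 6.75%) and TTCNNNGAA (a STAT site, in 7.02%). None of the 8 windows held a match to any of these. The CArG box, TGACGTCA, TGANTCA and TTCNNNGAA read the same in either direction, so each match to them was counted once. These matches describe letters only, and the motifs were picked after earlier results were known.

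Phlda1 had the widest span of group means of the 10, at 4.99 on the log2 CPM scale. Its product is a pleckstrin-homology-like protein induced by ERK, described as holding back growth factor receptor signalling. Phlda1 (chr10:111506286-111508645, plus strand) was nearly silent in EMPTY, with 7, 15 and 21 reads, or 0.386, 0.833 and 1.26 CPM, and measured 2.04, 1.51 and 2.02 CPM in CSF3R_ONLY. It rose to 12.3, 13.8 and 16.2 CPM in RUNX1-ETO_ONLY. The double groups had 15.9, 16.3 and 19.4 CPM (RUNX1-ETO_FIRST) and 30.3, 24.7 and 27.3 CPM (CSF3R_FIRST). CSF3R_FIRST was above every other group in every library, and RUNX1-ETO_ONLY overlapped RUNX1-ETO_FIRST. A gene model on the opposite strand, Gm28592, had 0 to 4 counts in a library.

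Etv5, an ETS transcription factor induced downstream of growth factor receptors, split the groups by the fusion, as Dusp5 did. Etv5 (chr16:22381309-22439719, minus strand) measured 26.1, 22.9 and 17.3 CPM in EMPTY and 19.1, 18.8 and 18.3 in CSF3R_ONLY. It measured 73.4, 71.3 and 57.2 CPM in RUNX1-ETO_ONLY. The double groups had 62.1, 72.4 and 81.3 CPM (RUNX1-ETO_FIRST) and 65.0, 55.1 and 49.1 CPM (CSF3R_FIRST). All libraries with the fusion were above all without it, and the 3 fusion groups overlapped one another.

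Egr1, the zinc-finger factor that is among the first genes transcribed after ERK activation, was higher with either allele and higher still with both. Egr1 (chr18:34859823-34864984, plus strand) measured 14.3, 17.1 and 12.5 CPM in EMPTY, 111, 112 and 109 in CSF3R_ONLY and 221, 212 and 205 in RUNX1-ETO_ONLY. With both alleles it measured 350, 401 and 417 CPM in RUNX1-ETO_FIRST and 346, 343 and 312 in CSF3R_FIRST. The groups ranked EMPTY, CSF3R_ONLY, RUNX1-ETO_ONLY and then the double groups with no overlap between these steps. Per kilobase of exon, Egr1 averaged 3.26 CPM in EMPTY, below Spred2 (14.8), Dusp6 (10.8), Spry2 (7.34), Etv5 (5.38), Dusp5 (4.85) and Spred1 (4.62). In RUNX1-ETO_FIRST it averaged 86.8 CPM per kilobase, with Dusp5 next at 18.9 and Etv5 at 17.5.

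**Figure D1:**
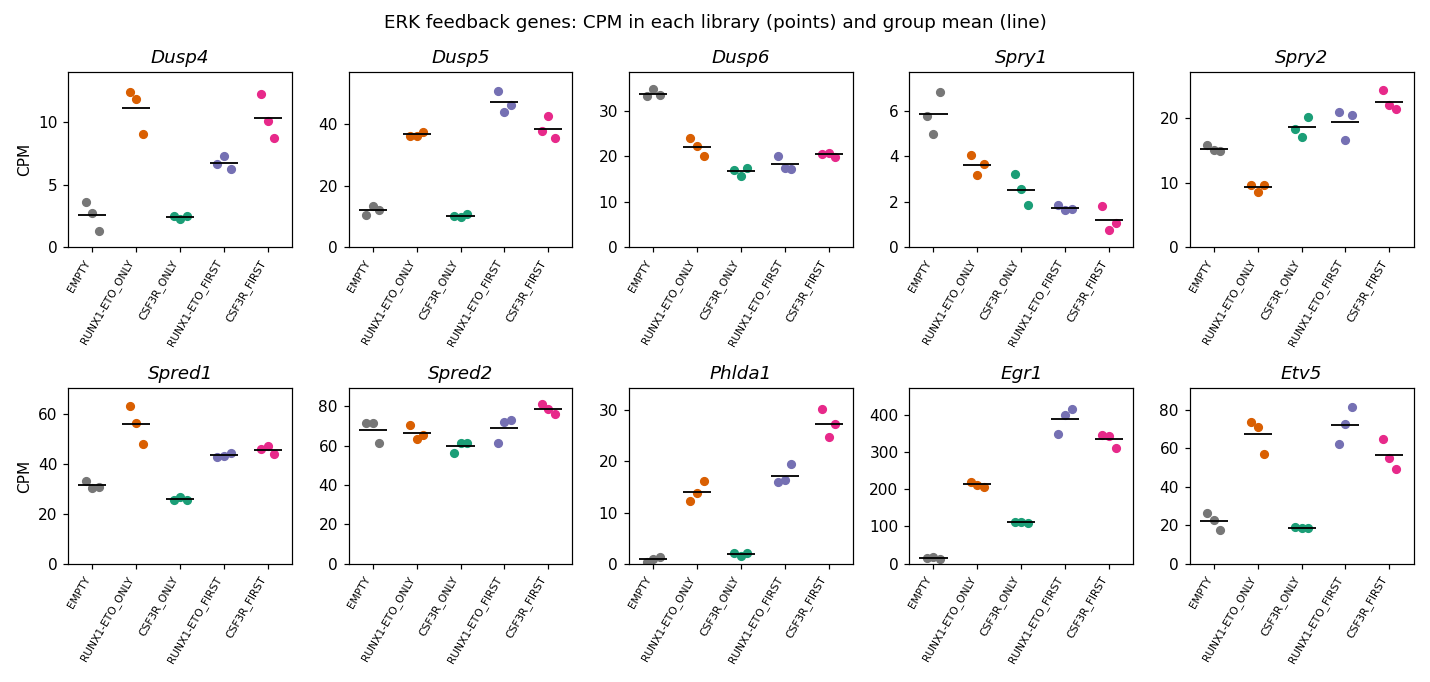
CPM of each of the 10 genes (y axis, linear and starting at 0, a scale per gene) in the 5 groups (x axis). Points are libraries and lines are group means of 3; Dusp4, Dusp5, Spred1, Phlda1 and Etv5 are high in the 3 fusion groups, Dusp6 and Spry1 are highest in EMPTY, and Egr1 steps up from 14.3, 17.1 and 12.5 in EMPTY to 350, 401 and 417 in RUNX1-ETO_FIRST.

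With the fusion alone, set against control vectors, 6 of the 10 genes rose and 3 fell. Phlda1 rose 17.2-fold (log2 4.10, SE 0.239, adjusted p = 1.37e-09 by edgeR's quasi-likelihood test) and Egr1 14.5-fold (log2 3.86, SE 0.108, adjusted p = 4.22e-13). Dusp4 rose 4.29-fold, Etv5 3.05-fold, Dusp5 3.04-fold and Spred1 1.78-fold, at adjusted p of 3.31e-06 or less. On the log2 scale Spry2 fell by 0.72, Spry1 by 0.69 and Dusp6 by 0.61 (adjusted p = 7.74e-05, 0.0234 and 3.59e-05). Spred2 differed by −0.04 (adjusted p = 0.749; 95% interval −0.23 to 0.15). Of all tested genes 20.8% were higher and 18.2% lower, and the median change was 1.22 over the 10 and 0.01 over all. The fall of Spry1 was not past the threshold without EMPTY 3 (adjusted p = 0.0609), RUNX1-ETO_ONLY 2 (0.0930) or RUNX1-ETO_ONLY 3 (0.0518). Summed CPM of 10 mast cell markers also moved, from 1387.8 to 1857.8 in EMPTY, where Fcer1a and Mrgprb1 had no counts, to 12033.0 to 13087.9 in RUNX1-ETO_ONLY. The sum of 8 erythroid and megakaryocyte markers was 172 to 187 against 84.1 to 88.8 in EMPTY. That of 10 neutrophil markers was 614 to 767 against 770 to 1290.4. Single genes weighed heavily in such sums. In RUNX1-ETO_ONLY, Itga2b averaged 163 of 182 CPM in the erythroid and megakaryocyte sum, and Cpa3 9435.4 of 12473.1 in the mast cell sum. Members did not all move with their sum. From EMPTY to RUNX1-ETO_ONLY, Gp9 (megakaryocyte) went from 4.30 to 0.758 CPM. Among neutrophil markers Ngp went from 310 to 66.1 and Mmp8 from 3.02 to 11.3. The part of cell type in the changes of the 10 genes was not tested. In bulk RNA, more cells of a type and more RNA per cell cannot be told apart.

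With the receptor allele alone, 2 of the 10 rose and 3 fell. Egr1 rose 7.54-fold (log2 2.91, SE 0.105, adjusted p = 7.65e-12) and Phlda1 2.26-fold (log2 1.18, SE 0.307, adjusted p = 0.00752). On the log2 scale Spry1 fell by 1.21 (SE 0.235, adjusted p = 0.000824), Dusp6 by 1.01 (SE 0.0888, adjusted p = 2.33e-07) and Spred1 by 0.28 (SE 0.0900, adjusted p = 0.0252). The test was not passed by Dusp4 (−0.09, adjusted p = 0.830), Dusp5 (−0.24, 0.106), Etv5 (−0.24, 0.263), Spred2 (−0.19, 0.103) and Spry2 (0.28, 0.0571). The background was 19.9% of genes higher and 13.2% lower, and the median change was −0.21 over the 10 and 0.00 over all. Phlda1 was not past the threshold when only these groups were fitted (adjusted p = 0.0651), and Spred1 was not without EMPTY 1 (0.0830), CSF3R_ONLY 1 (0.0735), CSF3R_ONLY 2 (0.0504) or CSF3R_ONLY 3 (0.0798). Without the 4 libraries set apart by transcript length, Etv5 (−0.41, adjusted p = 0.000188) and Spred2 (−0.28, adjusted p = 0.000220) were past it too. Neutrophil markers moved with this allele: the summed CPM of 10 was 6322.8 to 6825.1 in CSF3R_ONLY against 770 to 1290.4 in EMPTY. The mast cell sum was also higher, at 3662.2 to 3742.0 against 1387.8 to 1857.8. So was that of 8 erythroid and megakaryocyte markers, at 255 to 260 against 84.1 to 88.8. Itga2b averaged 241 of 257 CPM of the latter in CSF3R_ONLY and 75.9 of 86.1 in EMPTY. The part of these cell types was not tested.

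Set directly against each other, the single alleles differed in 8 of the 10 genes. The fusion was higher for Phlda1 (log2 2.92, SE 0.209), Dusp4 (2.20, SE 0.242), Etv5 (1.85, SE 0.152), Dusp5 (1.84, SE 0.102), Spred1 (1.11, SE 0.0891), Egr1 (0.95, SE 0.0945) and Dusp6 (0.40, SE 0.0895), the last at an adjusted p of 0.00169 and the others at 1.76e-06 or less. The fusion was lower for Spry2 alone (−0.99, SE 0.109, adjusted p = 1.72e-06). Spry1 (0.52, adjusted p = 0.0898) and Spred2 (0.15, adjusted p = 0.165) were not past the threshold. With unscaled library sizes both were (adjusted p = 0.0285 and 0.0205), as was Spry1 without CSF3R_ONLY 1 (0.73, adjusted p = 0.0443) and Spred2 without the 4 libraries set apart (0.17, adjusted p = 0.0171). These are 7 higher and 1 lower, where 22.3% and 23.8% of all genes were, and the medians were 1.03 and 0.01. The mast cell sum was 12033.0 to 13087.9 CPM with the fusion against 3662.2 to 3742.0 with the receptor allele, the neutrophil sum 614 to 767 against 6322.8 to 6825.1 and the erythroid and megakaryocyte sum 172 to 187 against 255 to 260, and their part was not tested.

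**Figure D2:**
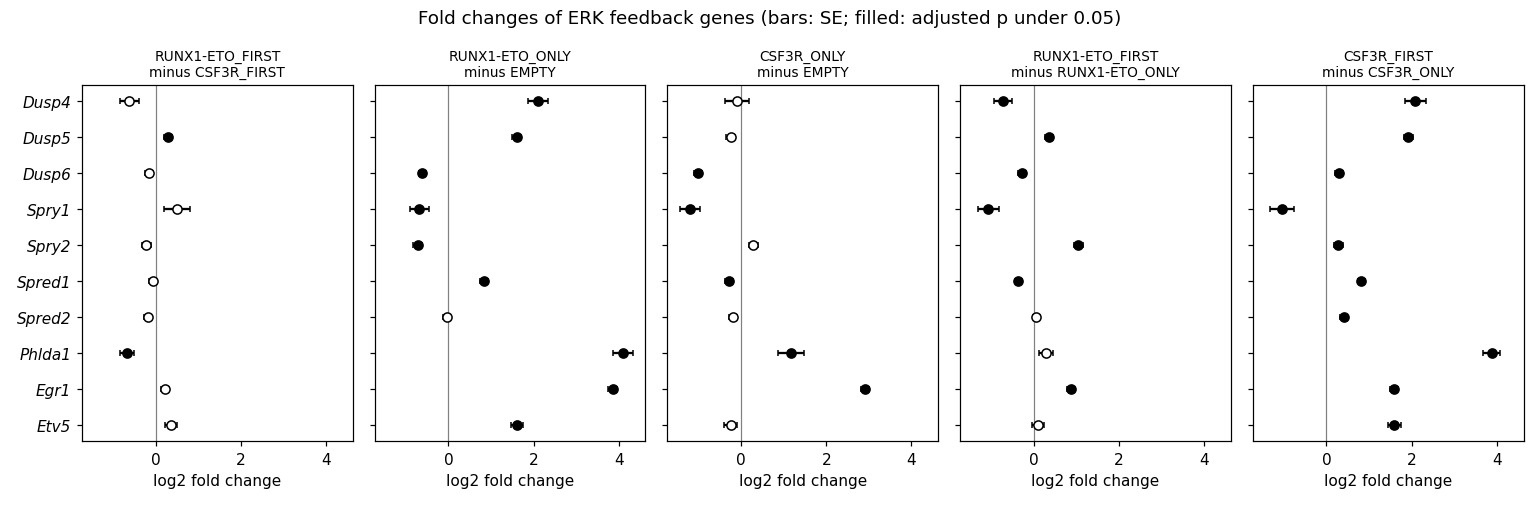
Log2 fold change (x axis) of each gene (y axis) in 5 comparisons, with bars of 1 SE; filled points have an adjusted p under 0.05. Phlda1 at 4.10 and Egr1 at 3.86 are farthest right with the fusion alone, and in the comparison of the 2 orders all points lie between −0.67 and 0.50.

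Adding the receptor allele to cells that had the fusion raised 3 of the 10 genes and lowered 4. Spry2 rose 2.08-fold (log2 1.05, SE 0.109, adjusted p = 2.55e-06), Egr1 rose 1.83-fold (0.87, SE 0.0937, adjusted p = 3.99e-06) and Dusp5 1.29-fold (0.36, SE 0.0931, adjusted p = 0.00879). On the log2 scale Spry1 fell by 1.07 (adjusted p = 0.00478), Dusp4 by 0.72 (0.0206), Spred1 by 0.36 (0.00529) and Dusp6 by 0.28 (0.0307). Etv5 (0.10, adjusted p = 0.684), Phlda1 (0.29, adjusted p = 0.230) and Spred2 (0.06, adjusted p = 0.688) were not past the threshold, though Phlda1 was without the 4 libraries set apart (0.44, adjusted p = 0.00846). Over all genes 16.0% were higher and 10.3% lower, with medians of 0.08 for the 10 and −0.02 for all. The calls of Dusp4 and Dusp6 were lost without RUNX1-ETO_ONLY 1 (adjusted p = 0.0837 and 0.136), RUNX1-ETO_ONLY 2 (0.0682 and 0.0810) or RUNX1-ETO_FIRST 3 (0.0750 and 0.120), that of Dusp4 also without RUNX1-ETO_FIRST 1 (0.0593) and that of Dusp6 without RUNX1-ETO_FIRST 2 (0.107). Dusp6 was also lost with no filter (adjusted p = 0.108) and with only the groups compared (0.0858), and Dusp5 was lost with unscaled library sizes (0.0595). The mast cell sum was 16540.0 to 19806.3 CPM against 12033.0 to 13087.9 with the fusion alone, the neutrophil sum 773 to 909 against 614 to 767 and the erythroid and megakaryocyte sum 242 to 259 against 172 to 187, and their part was not tested.

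Adding the fusion to cells that had the receptor allele raised 9 of the 10 and lowered Spry1. Phlda1 rose 14.7-fold (log2 3.88, SE 0.206), Dusp4 4.27-fold (2.09, SE 0.244), Dusp5 3.77-fold (1.92, SE 0.102), Egr1 3.02-fold (1.59, SE 0.0958), Etv5 3.01-fold (1.59, SE 0.152) and Spred1 1.77-fold (0.82, SE 0.0895), at adjusted p of 3.48e-06 or less. Smaller rises were those of Spred2 (0.40, adjusted p = 0.00126), Dusp6 (0.29, 0.0174) and Spry2 (0.28, 0.0365). Spry1 fell by 1.05 (SE 0.282, adjusted p = 0.00637). The background was 22.3% higher and 22.6% lower, and the medians were 1.21 for the 10 and −0.02 for all genes. The rises of Dusp6 and Spry2 were lost with unscaled library sizes (adjusted p = 0.0856 and 0.120), and without CSF3R_ONLY 2 (0.0804 and 0.145). Without CSF3R_ONLY 1 and without CSF3R_FIRST 1 or 2, Spry2 was at 0.0914, 0.138 and 0.0556, and with no filter it was at 0.0549. Between these groups the mast cell sum went from 3662.2 to 3742.0 CPM to 29226.4 to 33544.4 and the neutrophil sum from 6322.8 to 6825.1 to 1392.0 to 1780.0. The erythroid and megakaryocyte sum was 301 to 317 against 255 to 260, and their part was not tested.

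The series title asks about allele order. For it 2 of the 10 genes were past the threshold, near the share of all tested genes given below. Phlda1 was lower when the fusion came first, at 17.2 ± 1.91 CPM against 27.4 ± 2.82 (SD, n = 3 each). The difference was 1.59-fold (log2 −0.67, SE 0.161, adjusted p = 0.00805), and the call held in all 12 alternative analyses, at −0.79 to −0.57. Dusp5 was higher when the fusion came first, at 46.9 ± 3.36 CPM against 38.4 ± 3.63 (log2 0.29, SE 0.0934, adjusted p = 0.0449). That call was lost in 8 of 12 alternatives, among them those without RUNX1-ETO_FIRST 1 (adjusted p = 0.152), 2 (0.0526) or 3 (0.133) and without CSF3R_FIRST 1 (0.120) or 3 (0.250). These are 1 of 10 higher and 1 lower, where 7.22% and 11.1% of all genes were, and the medians were −0.12 for the 10 and 0.00 for all genes.

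The other 8 genes were not past the threshold for order. Dusp4 differed by −0.62 (95% interval −1.10 to −0.13, adjusted p = 0.0609), Etv5 by 0.35 (0.03 to 0.67, adjusted p = 0.107), Egr1 by 0.22 (0.02 to 0.43, adjusted p = 0.114) and Spry1 by 0.50 (−0.15 to 1.16, adjusted p = 0.272). Dusp4 was past the threshold in 6 of 12 alternatives, among them no filter (adjusted p = 0.0306), only the groups compared (0.0132) and DESeq2 (0.0432). The libraries of the double groups did not overlap for Dusp4, Egr1, Spry2 or Spred2, and overlapped for Etv5, Spry1, Dusp6 and Spred1. Spry2 (−0.22, adjusted p = 0.156), Spred2 (−0.19, 0.145), Dusp6 (−0.16, 0.239) and Spred1 (−0.07, 0.616) were not past it either. Without the 4 libraries set apart by transcript length, more genes were called in general, with 1793 of 13214 tested genes higher and 2656 lower. In that fit 6 of the 10 were past the threshold. Phlda1 was still among them, along with Dusp4 (−0.74, adjusted p = 0.000307), Etv5 (0.33, 0.000655), Egr1 (0.22, 0.00172), Spry2 (−0.35, 0.0137) and Dusp6 (−0.28, 0.0278), while Dusp5 was not (0.14, 0.204). Summed mast cell markers were also lower with the fusion first, at 16540.0 to 19806.3 CPM against 29226.4 to 33544.4. So were the neutrophil sum, at 773 to 909 against 1392.0 to 1780.0, and the erythroid and megakaryocyte sum, at 242 to 259 against 301 to 317. The monocyte and macrophage sum was 234 to 238 against 256 to 270. The part of these sums in the differences was not tested.

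Against control vectors, both double groups gave 7 genes higher and 2 lower, the same genes in each. These comparisons share the EMPTY libraries. In RUNX1-ETO_FIRST Egr1 was 26.6-fold higher (log2 4.73, SE 0.112), Phlda1 20.9-fold (4.39, SE 0.237), Dusp5 3.91-fold, Etv5 3.26-fold, Dusp4 2.61-fold, Spred1 1.38-fold and Spry2 1.26-fold, while Spry1 fell by 1.76 and Dusp6 by 0.89 on the log2 scale. In CSF3R_FIRST Phlda1 was 33.3-fold higher (5.06, SE 0.233), Egr1 22.8-fold (4.51, SE 0.111), Dusp4 4-fold, Dusp5 3.20-fold, Etv5 2.55-fold, Spry2 1.48-fold and Spred1 1.46-fold, while Spry1 fell by 2.26 and Dusp6 by 0.73. The weakest of these calls was Spry2 in RUNX1-ETO_FIRST (adjusted p = 0.0168), which was lost in 5 of 12 alternatives: without RUNX1-ETO_FIRST 1 (0.0714) or 3 (0.0892), without the 4 libraries set apart (0.24, adjusted p = 0.0839), with no filter (0.0531) and with only the groups compared (0.0738). Spred2 was not past the threshold in either (0.02, adjusted p = 0.891, and 0.21, adjusted p = 0.0533), but in CSF3R_FIRST it passed without the 4 libraries (0.16, adjusted p = 0.0309), without EMPTY 1 (0.0496) and with DESeq2 (0.0264). The shares of all genes were 23.7% higher and 20.2% lower in RUNX1-ETO_FIRST and 26.8% and 26.7% in CSF3R_FIRST, and the medians of the 10 were 0.93 and 0.96 against −0.02 and −0.05 over all genes. The mast cell sum, 1387.8 to 1857.8 CPM in EMPTY, was 16540.0 to 19806.3 with the fusion first and 29226.4 to 33544.4 with the receptor first. The erythroid and megakaryocyte sum, 84.1 to 88.8 in EMPTY, was 242 to 259 and 301 to 317, the neutrophil sum was 773 to 909 and 1392.0 to 1780.0 against 770 to 1290.4, and their part was not tested.

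For Egr1, Dusp6, Spry2, Dusp5 and Spred2 the changes of the single alleles did not add on the log2 scale in at least 1 order. For Egr1 the sum of the single changes was 6.77, and the double groups fell short of it by 2.04 (fusion first, SE 0.138, adjusted p = 6.76e-08) and 2.27 (receptor first, SE 0.138, adjusted p = 2.76e-08). For Dusp6 the single falls sum to −1.62, and the double groups lay above this by 0.73 (adjusted p = 0.000701) and 0.90 (adjusted p = 9.6e-05). Spry2, lower with the fusion alone, ended above the sum of −0.44 by 0.78 (adjusted p = 0.00207) and 1.0 (adjusted p = 0.000191). Dusp5 exceeded its sum of 1.37 by 0.60 with the fusion first (adjusted p = 0.00825), and Spred2 exceeded −0.23 by 0.44 with the receptor first (adjusted p = 0.0159), a call lost with unscaled library sizes (adjusted p = 0.130).

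The additivity test thus called 3 of the 10 above the sum and 1 below it in each order, where 6.42% and 9.42% of all genes were called with the fusion first and 10.4% and 12.5% with the receptor first. Spry1, whose single falls sum to −1.90, differed from the sum by 0.14 and −0.36 (adjusted p = 0.849 and 0.502). Phlda1, with a sum of 5.28, differed by −0.89 and −0.22 (adjusted p = 0.104 and 0.688). Dusp4, Spred1 and Etv5 were not past the threshold in either order. Without the 4 libraries set apart, Phlda1 (−1.14, adjusted p = 0.0175), Spred2 (0.40, 0.000871) and Etv5 (0.49, 0.00116) were past it with the fusion first, and Dusp5 (0.41, 0.0204) with the receptor first.

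**Figure D3:**
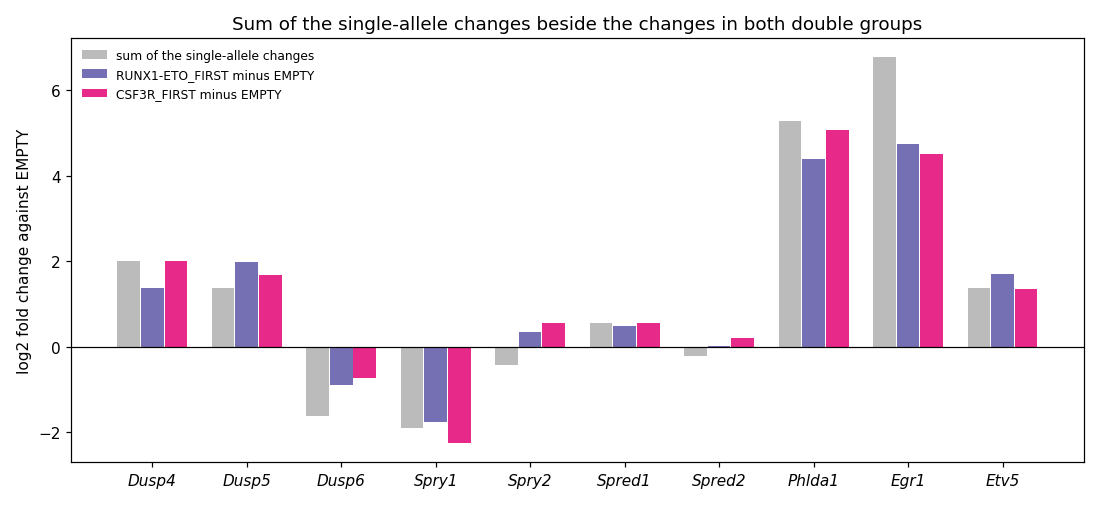
Log2 fold change against EMPTY (y axis) for each gene (x axis): grey bars are the sum of both single-allele changes, coloured bars the changes measured in the double groups. Egr1 stops at 4.73 and 4.51 where the sum is 6.77, and Spry2 is at 0.34 and 0.56 where the sum is −0.44.

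The rest of the pathway, 78 genes in 7 lists of which 72 were tested, sets the 10 in context. The alternative analyses were not read out for these lists, so how far their calls depend on the libraries set apart was not tested. Shares of all tested genes to read the counts against were 20.8% higher and 18.2% lower with the fusion alone, 19.9% and 13.2% with the receptor allele alone, and 7.22% and 11.1% for order. Of 6 other MAP kinase phosphatases, 5 rose with the fusion alone and none fell, among them Dusp9 (log2 2.16, adjusted p = 2.78e-05), Dusp2 (1.39, 1.45e-07) and Dusp1 (0.80, 2.29e-05). With the receptor allele alone 3 rose and 2 fell, including Dusp10 (1.30, 0.000954), Dusp16 (1.23, 1.39e-05) and Dusp2 (−1.16, 3.89e-06). For order 0 of 6 were past the threshold. Of 8 other feedback inhibitors tested, 1 rose and 2 fell with each allele alone. The fusion raised Errfi1 (0.75, adjusted p = 0.0310), an inhibitor of the epidermal growth factor receptor, and lowered Rasa2, a RAS GTPase activator (−1.59, 3.93e-09), while the receptor allele lowered Errfi1 (−1.11, 0.0122) and Nf1 (−0.81, 3.05e-05) and raised Trib1 (1.2, 3.21e-07). With the fusion first, Errfi1 (0.84, 0.0221) and Trib1 (0.45, 0.0113) were higher than in the opposite order.

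Most immediate early genes past the threshold with a single allele were higher, as Egr1 was. Of 13, the fusion alone raised 7 and lowered 2, led by Egr3 (log2 5.48, adjusted p = 8.18e-09), Fosb (4.12, 1.34e-06) and Fosl1 (−1.65, 1.94e-07), and the receptor allele alone raised 7 and lowered none, led by Egr3 (3.46, 1.97e-05), Junb (1.47, 2.68e-09) and Ier3 (1.46, 2.1e-08). Egr3 was at 1, 3 and 8 counts in EMPTY and Fosb at 1, 7 and 2, so their folds are imprecise. For order 1 was higher and 3 were lower with the fusion first, the latter being Jun (−0.84, 0.000268), Ier3 (−0.60, 0.000492) and Junb (−0.38, 0.00566). Adding the receptor allele to fusion cells raised 11 of the 13 and lowered none, where 16.0% and 10.3% of all genes were called. Adding the fusion to receptor cells raised 9 and lowered 1, where 22.3% and 22.6% were.

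Among 8 tested genes for ETS factors and their repressor Cic, the fusion alone raised 2 and lowered 1, and the receptor allele alone raised 2 and lowered 2. Etv4, the close relative of Etv5, rose with the fusion (0.56, adjusted p = 0.000430) and fell with the receptor allele (−0.82, 2.59e-05), and Cic, which represses Etv4 and Etv5, rose with both (0.79, 0.000191, and 0.73, 0.000458). Elk3 fell with the receptor allele (−1.16, 1.39e-08) and was higher with the fusion first (0.44, 0.000835). Of 6 later ERK targets, Lif rose with either allele (5.53, adjusted p = 1.01e-08, and 5.79, 6.1e-09), from 4, 0 and 1 counts in EMPTY. Ccnd1, the gene of cyclin D1, fell with both (−1.80, 5.25e-05, and −3.58, 3.17e-07) and was lower with the fusion first (−2.11, 0.000983). Hmga2 rose with the fusion (1.76, 4.14e-10) and fell with the receptor allele (−1.53, 5.28e-09). In all 2 of these 6 rose and 3 fell with the fusion, 2 and 4 with the receptor allele, and 0 and 1 for order.

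The 21 genes of the RAS, RAF, MEK and ERK core had 6 higher and 3 lower with the fusion alone, 8 and 0 with the receptor allele alone, and 0 past the threshold for order. The counts with the fusion alone are near the background of 20.8% and 18.2%. Rps6ka1, an ERK-activated kinase, fell with the fusion (−0.88, adjusted p = 2.62e-08), as did Braf (−0.67, 0.00128), while Gab2, an adaptor, rose (0.76, 0.0123). With the receptor allele Rps6ka3 (1.40, 5.7e-06), Gab2 (1.0, 0.00251) and Ksr1 (0.91, 0.00385) rose. Of 10 receptors upstream, 5 rose and 3 fell with each allele alone, and 2 were higher and 4 lower with the fusion first. Csf3r was among the 5 that rose with each allele alone, and whether reads of the introduced receptor are counted under it was not tested. Fgfr1 rose with the fusion (5.34, 1.41e-11) from 5, 6 and 3 counts in EMPTY and was lower with the fusion first (−1.38, 4.63e-07), as was Csf1r (−1.64, 1.73e-08), while Met was higher (1.87, 5.4e-05). Csf2rb rose with each allele (0.88, 0.000111, and 2.07, 1.51e-08), Csf2ra fell with the fusion (−1.37, 8.3e-06), and Kit (−1.94, 4.16e-11) and Met (−1.93, 1.45e-05) fell with the receptor allele.

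**Figure D4:**
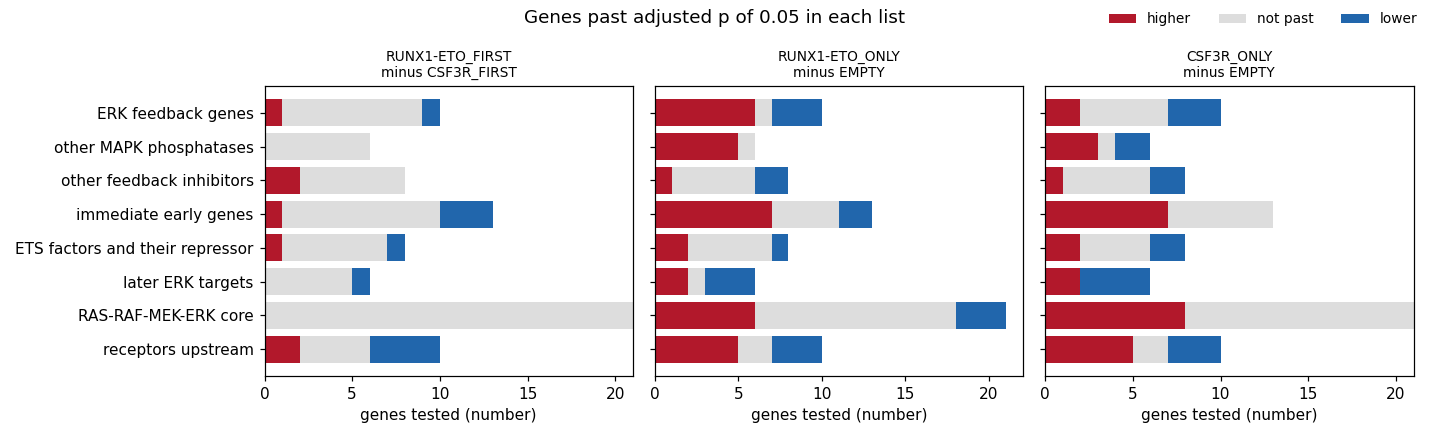
Number of tested genes (x axis) higher (red), not past an adjusted p of 0.05 (grey) and lower (blue) in the 10 feedback genes and 7 pathway lists (y axis), for 3 comparisons. The phosphatase list is 5 of 6 red with the fusion alone, and the core list of 21 is all grey for order.

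The genes closest to each member over the 5 group means, by root mean square (RMS) difference of centred log2 CPM among 8569 candidates, were from outside the pathway lists. At most 72 of the candidates were in those lists, so neighbours from outside them were likely whatever the pattern. Dusp5 was closest to Ikzf2 (RMS 0.15) and Idh1 (0.19), Dusp4 to Aqp11 (0.18) and Lrrc8b (0.19), and Etv5 to Nek6 (0.12) and Carmil2 (0.16). Ikzf2 averaged 13.3 CPM in EMPTY, 14.6 in CSF3R_ONLY, 48.5 in RUNX1-ETO_ONLY, and 52.5 and 50.8 in the double groups with the fusion first and second, a split like that of Dusp5. Spred1 was closest to Pgm2l1 and Kif3a (0.06 each), Dusp6 to Ankrd24 and Pnkd (0.07 each), Spry2 to Dubr (0.08) and P4hb (0.09), and Spry1 to Bsn (0.20) and Ramp1 (0.21). Phlda1 was closest to C77080 (0.18) and Cd200r4 (0.21). Egr1 was closest to Slc18a2 (0.31), the vesicular monoamine transporter, and Pakap (0.37). The RMS was not scaled by span, and the group means of Egr1 spanned 4.73. Spred2, with a span under 1, was given no neighbours. These likenesses rest on 5 group means that share libraries and scaling.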

How the data were processed

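Raw counts for each gene symbol in the 15 strand-specific mRNA libraries were deposited by the authors in a single table, which was used whole. Trimmomatic, STAR, DESeq2 and mm10 are named, without roles or versions, in the submitters' processing notes. The sources used here give no counting program, annotation or strand setting, so reads of a gene and an overlapping gene on the other strand cannot be told apart. AC137853.2, which overlaps the start of Dusp5, was not analysed here. The entry naming no gene (0.0179% to 0.0305% of counts) was left out. Total counts were 17007437 to 18178292 per library.

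Genes were kept by filterByExpr in edgeR 4.0.16 (minimum count 10, by group), leaving 13123. CPM uses TMM factors (0.921 to 1.09), and log2 CPM a prior count of 2. All libraries were fitted together as 5 group means, leaving 10 residual degrees of freedom, by robust quasi-likelihood F tests under R 4.3.3, two-sided, with Benjamini-Hochberg adjustment over all tested genes and a threshold of 0.05. SE and intervals are on the log2 scale and an additivity value is the change in a double group less the summed changes of the single alleles, each against EMPTY. The code was tested on simulated counts. DESeq2 1.42.0, unscaled library sizes, no filter, a replicate block, fewer groups or libraries and leaving out each replicate were the alternatives. The 7 pathway lists follow common knowledge of the pathway, and from each the up to 3 largest changes past the threshold in the order and single-allele comparisons, at a mean log2 CPM of at least 0, are named. Likeness candidates had a mean log2 CPM of at least 3. The 10 genes, the lists and the motifs were chosen with earlier results of these data known. Positions are from GENCODE M21 on GRCm38 (mm10). No replicate pair differed by as little as sampling noise, with a chi-square per degree of freedom of 2.46 to 74.7.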

Additional observations from a re-analysis of the deposited data

Results flagged for a closer look

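For Egr1, Dusp6, Spry2, Dusp5 and Spred2, the effect of adding an allele differed between cells with and without the other allele in at least 1 order, by the interaction test reported above as additivity. Over all tested genes, 6.42% were above and 9.42% below the sum with the fusion first, and 10.4% and 12.5% with the receptor first. Egr1 fell short of the sum of the single-allele changes in both orders, with interaction terms on the log2 scale of −2.04 with the fusion first and −2.27 with the receptor first. Dusp6 lay above the sum by 0.73 with the fusion first and 0.90 with the receptor first, so the single falls did not add in full. Against EMPTY it was at −0.89 and −0.73 in these orders, beside −0.61 with the fusion alone and −1.01 with the receptor alone. Spry2 lay above it by 0.78 with the fusion first and 1.0 with the receptor first. Dusp5 lay above it by 0.60 with the fusion first, and Spred2 by 0.44 with the receptor first. The interaction terms of the 2 orders share the EMPTY, RUNX1-ETO_ONLY and CSF3R_ONLY libraries, and the cause of the differences was not tested.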

How the results depend on the processing

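Of 67 called values of the 10 genes over 10 comparisons, 56 were called in the same direction in every alternative, and no called value reversed. With 4 libraries left out (EMPTY 3, RUNX1-ETO_ONLY 3, RUNX1-ETO_FIRST 1 and CSF3R_FIRST 3), the members past the threshold for order went from 2 to 6 and all genes from 2407 to 4449, and those for additivity with the fusion first from 4 to 7 and from 2078 to 3466. The members for order numbered 4 with unscaled library sizes, 4 with only the groups compared in the fit and 1 to 2 without single replicates, and all genes with the fusion alone went from 5117 to 3388 with only the groups compared. With unscaled library sizes the median of all genes lay between −0.20 (additivity, receptor first; −0.04 with TMM) and 0.15 (the single alleles set against each other; 0.01 with TMM). The split of all genes into higher and lower became 1842 and 1131 for order (948 and 1459 with TMM), 2247 and 2333 for the receptor alone (2617 and 1730), 4139 and 2460 for the single alleles set against each other (2926 and 3117), 1668 and 2700 for the receptor added (2097 and 1357), 2942 and 4831 for CSF3R_FIRST against EMPTY (3516 and 3505) and 1003 and 2725 for additivity with the receptor first (1368 and 1636). Values near zero that reversed with unscaled sizes were Spred1 for order (0.02), Spred2 with the fusion alone (0.03), with the receptor added (−0.06) and in RUNX1-ETO_FIRST (−0.03), and Etv5 with the receptor added (−0.02). For additivity with the receptor first, Dusp4, Spred1 and Etv5 became 0.03 each with no filter, 0.03, 0.03 and 0.02 with only the groups compared and 0.02, 0.02 and 0.01 with DESeq2. Without the 4 libraries Dusp4 became 0.31 and Etv5 0.16 there, and Spry1 −0.02 with the fusion first. Without single replicates the ranges were −0.35 to 0.34 (Dusp4), −0.15 to 0.18 (Etv5), −0.59 to 0.13 (Phlda1) and −0.11 to 0.09 (Spred1) there, −0.18 to 0.01 (Spred1) and −0.05 to 0.34 (Spry1) with the fusion first, −0.07 to 0.09 for Spred2 in RUNX1-ETO_FIRST, −0.01 to 0.19 for Etv5 with the receptor added and −0.42 to 0.25 for Dusp4 with the receptor alone. Leaving out CSF3R_FIRST 3 brought Dusp4 past the threshold for order (adjusted p = 0.0493), and leaving out EMPTY 3 did so for Etv5 (0.0302) and Spred2 (0.0100) with the receptor alone, where Dusp5 also passed without EMPTY 1 (0.0338) and with unscaled library sizes (0.0432). The replicate block changed 3 calls of the 10 genes, those of Dusp4 (adjusted p = 0.0246) and Dusp5 (0.0519) for order and Spry2 with the receptor alone (0.0388). Pairs of same-numbered libraries from different groups varied widely (correlation of deviations −0.62 to 0.82), with a median of 0.06 against 0.04 for different numbers. Some did deviate together with transcript length: EMPTY 3 (−0.538), RUNX1-ETO_ONLY 3 (−0.452) and CSF3R_FIRST 3 (−0.387). CSF3R_ONLY 3 (0.027) and RUNX1-ETO_FIRST 3 (0.241) did not share this. The cause of these changes was not tested. Low read counts limit Phlda1 and Dusp4 in EMPTY and CSF3R_ONLY and Spry1 in the double groups.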
